A study of Rattus norvegicus with 9 samples.

Results

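The genes described here carry ions across the lining of the ileum: 9 transporters and channels out of 17120 genes listed in each of 2 deposited tables. They were chosen by symbol, and all 9 were found in both tables and passed the level filter stated below. The absorptive carriers are Slc9a3, Slc9a2, Slc26a3 and Slc26a6. The secretory set is Slc4a4, Cftr, Slc12a2 and Kcnq1, and Atp1b1, a subunit of the sodium pump, serves both directions. The rats were of the strain Otsuka Long-Evans Tokushima fatty, obese and diabetic and without a working cholecystokinin type A receptor, and every group shares that background. Total RNA of their ileum, the last stretch of the small intestine, was sequenced. Tissue was collected 1 month after surgery. There were 3 groups of 3 samples: Roux-en-Y gastric bypass (RYGB) with FDG decreased, RYGB with FDG increased, and sham operation. The bypass reroutes food from a small stomach pouch into the jejunum, upstream of the ileum. FDG is not spelled out in the labels and is read here as fluorodeoxyglucose, a tracer of glucose uptake. The labels give no age, and do not say what the FDG classes were measured on or whether replicates are separate animals, so a p-value here speaks only of sample-to-sample spread, which may be technical.

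The small intestine absorbs salt when sodium-proton exchangers and chloride-bicarbonate exchangers of the apical membrane work side by side. It secretes fluid when chloride enters cells through the basolateral cotransporter Slc12a2 and leaves through the apical channel Cftr, with potassium recycled through basolateral channels such as Kcnq1 and bicarbonate brought in by Slc4a4. The sodium pump drives both. Absorption is known mainly from villus cells and secretion mainly from crypts.

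Values are FPKM, fragments scaled to transcript length and to the mapped fragments of the library, so levels can be set side by side between genes. The RYGB table holds the FDG-decreased and FDG-increased libraries, and the sham table holds FDG-increased and sham libraries. The tables were scaled separately, and each comparison stays within its own table. The sum of FPKM ranged from 465698 to 864511 per library. FDG-increased columns 2 and 3 of the sham table are the same libraries as FDG-increased replicates 1 and 2 of the RYGB table, so the 12 columns hold 10 distinct libraries and the comparisons share 2 of them. Markers of the whole epithelium, 6 of 6 listed, summed to 3044 to 6005 FPKM over all columns. Sham replicate 1 goes against its label as ileum. Its 5 measured markers of distal ileum summed to 249 FPKM, against 8698 and 11855 FPKM in sham replicates 2 and 3, and none was at 0. Its 5 measured markers of proximal small intestine summed to 424 FPKM, against 51.0 and 24.8 FPKM in the other sham libraries. Each member's difference from sham ileum is therefore given with and without it. In tissue RNA, fewer cells of a type and less RNA per cell cannot be told apart.

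None of the 9 members passed the test in either comparison, and none had groups that did not overlap. The main movement was between libraries of one group rather than between groups. The test was limma on log2(FPKM + 1) over all genes whose mean reached 1 FPKM in the table, with Benjamini-Hochberg adjustment and a threshold of 0.05. FDG-decreased minus FDG-increased gave 0 of 9 members at an adjusted p under 0.05 by limma, where 0% of 10739 genes were called, and 0 of 9 at an unadjusted p under 0.05, against 1.02% of all genes. Same-numbered libraries of the RYGB table deviate together, so the replicate number was also fitted as a block. With that block limma called 0 of 9 members against 1.14% of all genes, and 1 of 9, Slc26a6, had an unadjusted p under 0.05, against 9.52% of all genes. FDG-increased minus sham gave 0 of 9 members called by limma, where 0.037% of 10801 genes were, and 1 of 9, Slc9a2, had an unadjusted p under 0.05, against 7.84% of all genes. Non-overlapping groups were found for 3.2% of all genes between FDG-decreased and FDG-increased ileum and for 15.1% between FDG-increased and sham ileum.

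Atp1b1 was the most abundant member, with a median of 548 FPKM over the 10 distinct libraries. Slc12a2 followed at 130 FPKM, Slc26a3 at 107 FPKM, Slc9a2 at 80.2 FPKM, Slc4a4 at 77.7 FPKM and Slc26a6 at 72.1 FPKM. Cftr had a median of 40.1 FPKM, Slc9a3 of 22.7 FPKM and Kcnq1 of 21.5 FPKM. From Slc12a2 to Slc26a6 the ranges over libraries overlapped widely, and so did those of Slc9a3 and Kcnq1, so neighbours in that order do not differ beyond their spread, while the lowest Atp1b1 library, 379 FPKM, lay above the highest level of any other member, 309 FPKM for Slc26a3. The spread differed more than the medians of neighbours. In the RYGB table the mean of log2(FPKM + 1) of each same-numbered pair ranged over 2.19 units for Slc26a3, 1.81 for Slc9a2, 1.74 for Cftr, 1.29 for Atp1b1 and 1.04 for Slc12a2. It ranged over 0.65 units for Slc4a4, 0.60 for Kcnq1, 0.54 for Slc26a6 and 0.22 for Slc9a3. The median of this range was 1.04 over the members and 0.78 over all genes tested.

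Ranked by that range of pair means, the promoters of the absorptive member with the widest range, the secretory member with the widest range and the member with the narrowest range are printed to show how unlike they are. Over the 10 distinct libraries the order is another one, with the highest level 5.59 times the lowest for Slc9a3, the largest ratio of the members, and 2.49 times for Kcnq1, the smallest. They come from RefSeq on rat build GRCr8, where 6 of the 9 members had an entry, and each runs over 300 bases, 5′ to 3′ along the gene's strand. Capitals mark matches, on either strand, to GATAA (GATA factors), TGANTCA (AP-1), TGACG (part of a cyclic AMP response element) and GGGCGG (GC box), and none of these matches overlapped another. A match is a description of letters and not a binding site.
Slc9a3, chr1:30995953-30996252, minus strand: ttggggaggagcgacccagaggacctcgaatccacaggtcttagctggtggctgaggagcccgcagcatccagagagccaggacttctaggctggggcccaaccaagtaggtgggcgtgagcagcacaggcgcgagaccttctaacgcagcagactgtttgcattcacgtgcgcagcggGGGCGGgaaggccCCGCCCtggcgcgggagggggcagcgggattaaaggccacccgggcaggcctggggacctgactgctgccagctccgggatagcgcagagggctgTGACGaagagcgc
Slc26a3, chr6:53751165-53751464, plus strand: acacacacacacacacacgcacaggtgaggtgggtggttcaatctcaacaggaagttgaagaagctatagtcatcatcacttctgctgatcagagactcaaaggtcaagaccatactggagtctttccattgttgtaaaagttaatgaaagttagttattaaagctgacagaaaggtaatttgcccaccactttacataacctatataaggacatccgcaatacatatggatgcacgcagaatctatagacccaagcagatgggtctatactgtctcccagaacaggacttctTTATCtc
Cftr, chr4:47527379-47527678, plus strand: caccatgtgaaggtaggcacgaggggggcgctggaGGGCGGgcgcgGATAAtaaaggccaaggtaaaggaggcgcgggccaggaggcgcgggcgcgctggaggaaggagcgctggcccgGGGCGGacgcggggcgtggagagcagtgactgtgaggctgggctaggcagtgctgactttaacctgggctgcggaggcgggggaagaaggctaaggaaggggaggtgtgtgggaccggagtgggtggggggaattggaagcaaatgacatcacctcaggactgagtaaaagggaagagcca
Slc9a3 held 1 TGACG and 2 GGGCGG, Slc26a3 held 1 GATAA, and Cftr held 1 GATAA and 2 GGGCGG. No window of these held TGANTCA. Of all 33469 promoters in the same table, 26.5% held GATAA, 7.33% TGANTCA, 21.2% TGACG and 33.1% GGGCGG.

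Slc9a3, the apical sodium-proton exchanger NHE3, differed least between the pairs of the RYGB table. It stood at 24.5, 19.0 and 27.1 FPKM in FDG-decreased replicates 1, 2 and 3, against 22.9, 21.8 and 21.0 FPKM in FDG-increased replicates 1, 2 and 3. The groups overlapped, and the log2 difference was 0.09 (SE 0.27, limma 95% interval -0.53 to 0.71, or -0.25 to 0.42 with the block). In the sham table Slc9a3 stood at 22.9, 23.4 and 22.3 FPKM in FDG-increased columns 1, 2 and 3, against 91.6, 22.4 and 16.4 FPKM in sham replicates 1, 2 and 3. Sham replicate 1 alone stood far above the rest, with sham replicate 2 among the FDG-increased libraries and sham replicate 3 below them. FDG-increased minus sham was -0.49 (SE 0.55, 95% interval -1.74 to 0.76, limma adjusted p = 0.870). Without sham replicate 1 it was 0.24 (SE 0.27, 95% interval -0.40 to 0.88, limma adjusted p = 0.805), the opposite sign.

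Slc9a2, the sodium-proton exchanger NHE2, varied more between replicate numbers than between the FDG groups. It stood at 100.3, 143 and 43.3 FPKM in FDG-decreased replicates 1, 2 and 3, against 119, 144 and 37.5 FPKM in FDG-increased replicates 1, 2 and 3. In both groups replicate 2 was highest and replicate 3 lowest, and the difference was -0.02 (SE 0.64, 95% interval -1.51 to 1.47 by limma). With the block that interval narrowed to -0.32 to 0.29. Against sham, Slc9a2 stood at 79.9, 122 and 147 FPKM in FDG-increased columns 1, 2 and 3, against 80.5, 34.5 and 70.6 FPKM in sham replicates 1, 2 and 3. Within this table the groups touched at one point only, where sham replicate 1 lay just above FDG-increased column 1. The FDG-increased library held only in the RYGB table, replicate 3, stood at 37.5 FPKM on that table's own scale, inside the sham range. The means were 116 ± 33.7 FPKM in FDG-increased ileum and 61.8 ± 24.2 FPKM in sham ileum (SD, n = 3 each). The log2 difference was 0.94 (SE 0.41, 95% interval 0.01 to 1.87), with a limma p of 0.0475 and an adjusted p of 0.630. Without sham replicate 1 it was 1.17 (limma adjusted p = 0.514), without sham replicate 2 it was 0.57 (limma adjusted p = 0.913), and with libraries scaled to the same sum of FPKM it was 0.51 (limma adjusted p = 0.528).

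**Figure D1:**
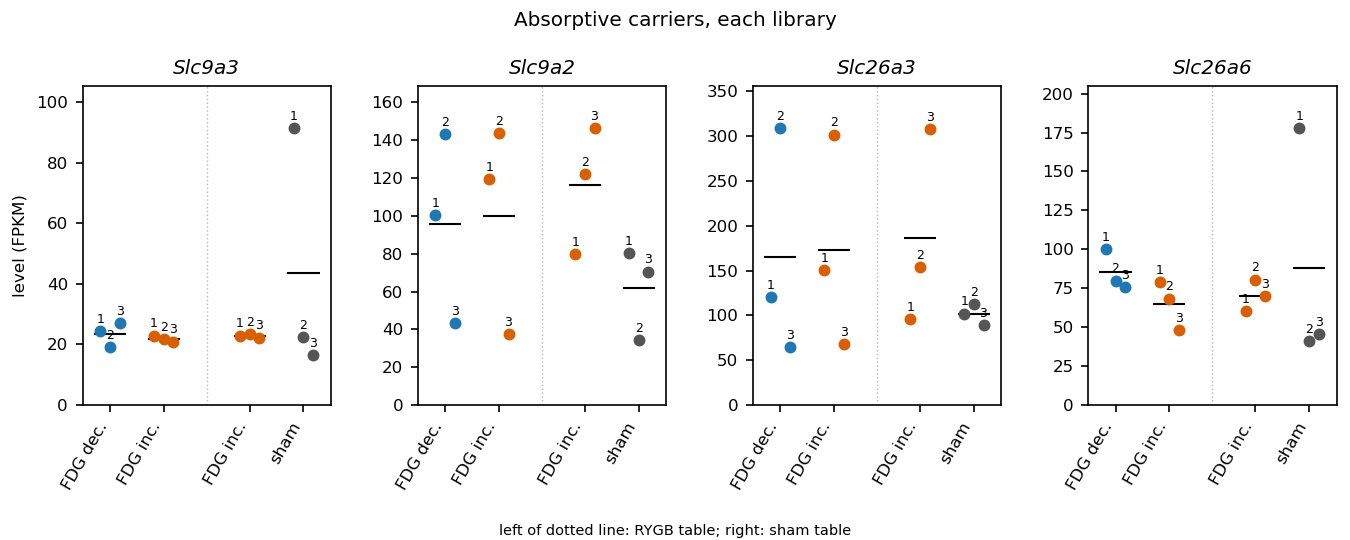
Level in FPKM of the 4 absorptive carriers in each library, with numbered points for replicates or columns and a bar for the group mean; the RYGB table is left of the dotted line and the sham table right of it. Sham replicate 1 stands apart at 91.6 FPKM of Slc9a3 and 178 FPKM of Slc26a6, while Slc9a2 and Slc26a3 are ordered by replicate number alike in FDG-decreased and FDG-increased ileum.

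Slc26a3, the chloride-bicarbonate exchanger DRA, had the widest spread between pairs of all members. It stood at 121, 309 and 64.8 FPKM in FDG-decreased replicates 1, 2 and 3, against 150.3, 302 and 68.0 FPKM in FDG-increased replicates 1, 2 and 3. The order of replicates was the same in both groups, and the levels of each pair lay close together. The log2 difference was -0.12 (SE 0.72, limma 95% interval -1.79 to 1.56), and with the block the interval was -0.41 to 0.18. Replicate 3 also stood apart in markers of other cells. The 6 smooth muscle markers, none at 0, summed to 945, 746 and 1437 FPKM in FDG-decreased replicates 1, 2 and 3, against 1027, 977 and 1873 FPKM in FDG-increased replicates 1, 2 and 3. The 5 measured markers of distal ileum, none at 0, summed to 16169, 19266 and 5604 FPKM in FDG-decreased replicates 1, 2 and 3, against 19360, 24004 and 7599.9 FPKM in FDG-increased replicates 1, 2 and 3. The 4 measured markers of T, B and myeloid cells, none at 0, summed to 60.3, 85.9 and 10.1 FPKM in FDG-decreased replicates 1, 2 and 3, against 63.0, 114 and 11.2 FPKM in FDG-increased replicates 1, 2 and 3. Muscle markers were thus highest, and the others lowest, in replicate 3 of both groups. The sum of FPKM per library had the same order of replicates as Slc26a3, Slc9a2 and Atp1b1. It was 616365, 827636 and 475536 in FDG-decreased replicates 1, 2 and 3. In FDG-increased replicates 1, 2 and 3 it was 610658, 847267 and 497325. The part of these markers and of library scale in the order of these genes was not tested. Against sham, Slc26a3 stood at 95.9, 154 and 308 FPKM in FDG-increased columns 1, 2 and 3, with 102, 112 and 89.3 FPKM in sham replicates 1, 2 and 3. The sham libraries lay close together and FDG-increased column 1 lay among them, while columns 2 and 3 lay above all of them. FDG-increased minus sham was 0.71 (SE 0.44, 95% interval -0.28 to 1.70, limma adjusted p = 0.743), and 0.72 without sham replicate 1 (SE 0.51, limma adjusted p = 0.679). It was 0.27 without FDG-increased column 3 and 1.10 without column 1. The FDG-increased library held only in the RYGB table, replicate 3, stood at 68.0 FPKM on that table's own scale.

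Slc26a6, the anion exchanger PAT1, was the member with the largest difference between the FDG groups. It stood at 99.99, 79.9 and 75.8 FPKM in FDG-decreased replicates 1, 2 and 3, against 78.8, 68.3 and 48.3 FPKM in FDG-increased replicates 1, 2 and 3. The groups overlapped, yet each FDG-decreased library lay above its FDG-increased partner, by 0.34, 0.22 and 0.64 on the log2 scale in pairs 1, 2 and 3. The mean difference was 0.40 (SE 0.34, 95% interval -0.38 to 1.19, limma adjusted p = 0.999998), 0.20 without FDG-increased replicate 3 and 0.55 without FDG-increased replicate 1. With the block it had SE 0.14 and a 95% interval of 0.10 to 0.71, with a limma p of 0.0151 and an adjusted p of 0.310. Beside it, the 5 measured markers of proximal small intestine summed to 39.0, 48.8 and 55.01 FPKM in FDG-decreased replicates 1, 2 and 3, against 15.05, 35.6 and 15.5 FPKM in FDG-increased replicates 1, 2 and 3. Of these markers only Gata4, in FDG-increased replicate 1, was at 0. The 7 measured villus enterocyte markers, none at 0, summed to 18635, 14339 and 5364 FPKM in FDG-decreased replicates 1, 2 and 3. Their sums were 10374, 11197 and 3051 FPKM in FDG-increased replicates 1, 2 and 3. Both lists thus summed higher in each FDG-decreased library than in its partner. Krt20, of the villus list, was lower in all 3 pairs. The part of these markers in the Slc26a6 difference was not tested.

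Set against sham ileum, Slc26a6 turned on a single library. It stood at 60.2, 80.6 and 69.7 FPKM in FDG-increased columns 1, 2 and 3, against 178, 40.9 and 45.4 FPKM in sham replicates 1, 2 and 3. All FDG-increased libraries lay below sham replicate 1 and above sham replicates 2 and 3. The log2 difference was 0.01 (SE 0.53, 95% interval -1.20 to 1.22, limma adjusted p = 0.999). Without sham replicate 1 it was 0.68 (SE 0.31, 95% interval -0.04 to 1.40, limma adjusted p = 0.535).

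Slc4a4, the basolateral sodium-bicarbonate cotransporter NBCe1, had FDG-increased levels close together in the RYGB table. It stood at 64.5, 132 and 75.8 FPKM in FDG-decreased replicates 1, 2 and 3, against 79.6, 96.5 and 80.8 FPKM in FDG-increased replicates 1, 2 and 3. The FDG-decreased libraries lay on both sides of the FDG-increased ones, and the difference was 0.02 (SE 0.38, limma 95% interval -0.85 to 0.89). Slc4a4 in the sham table stood at 58.3, 81.4 and 98.4 FPKM in FDG-increased columns 1, 2 and 3, against 38.2, 86.0 and 65.8 FPKM in sham replicates 1, 2 and 3. Sham replicate 1 was lowest and the rest overlapped. The difference was 0.37 (SE 0.38, 95% interval -0.51 to 1.235, limma adjusted p = 0.855), and without sham replicate 1 it was 0.04 (limma adjusted p = 0.980).

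Cftr, the apical chloride and bicarbonate channel opened by cyclic AMP and cyclic GMP signalling, was highest in replicate 2 of every labelled group. It stood at 19.8, 94.6 and 45.8 FPKM in FDG-decreased replicates 1, 2 and 3, against 23.6, 58.9 and 44.5 FPKM in FDG-increased replicates 1, 2 and 3. The FDG-increased range lay inside the FDG-decreased one, with a difference of 0.16 (SE 0.60, limma 95% interval -1.24 to 1.56, or -0.24 to 0.55 with the block). Cftr in the sham table stood at 26.8, 24.2 and 60.1 FPKM in FDG-increased columns 1, 2 and 3, against 35.6, 61.8 and 30.4 FPKM in sham replicates 1, 2 and 3. One library in each group stood high, and the difference was -0.25 (SE 0.42, 95% interval -1.21 to 0.71, limma adjusted p = 0.919), and -0.34 without sham replicate 1 (SE 0.50, limma adjusted p = 0.862).

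Slc12a2, the cotransporter NKCC1 that loads crypt cells with chloride, was lowest, like Cftr, in replicate 1 of both FDG groups. It stood at 73.1, 152 and 151 FPKM in FDG-decreased replicates 1, 2 and 3, against 99.4, 205 and 135 FPKM in FDG-increased replicates 1, 2 and 3. FDG decreased minus FDG increased was -0.44, -0.43 and 0.16 on the log2 scale in pairs 1, 2 and 3, so the pairs did not go one way. The mean was -0.24 (SE 0.45, limma 95% interval -1.29 to 0.81, or -0.58 to 0.10 with the block). Slc12a2 in the sham table stood at 90.8, 102 and 209 FPKM in FDG-increased columns 1, 2 and 3, against 109, 196 and 126 FPKM in sham replicates 1, 2 and 3. The sham range lay inside the FDG-increased range, and the difference was -0.16 (SE 0.42, 95% interval -1.10 to 0.79, limma adjusted p = 0.956), and -0.33 without sham replicate 1 (SE 0.46, limma adjusted p = 0.851). Beside these levels, the 8 crypt and dividing-cell markers, none at 0, summed to 444, 1521 and 863 FPKM in FDG-decreased replicates 1, 2 and 3, against 441, 1113 and 1069 FPKM in FDG-increased replicates 1, 2 and 3. In the sham table the same markers summed to 511, 451 and 1135 FPKM in FDG-increased columns 1, 2 and 3, against 466, 1208 and 641 FPKM in sham replicates 1, 2 and 3. Cftr and this sum peaked in the same library of each group, and their part in the levels of Cftr and Slc12a2 was not tested.

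Kcnq1, the basolateral potassium channel that pairs with Kcne3 in intestinal crypts, had the lowest median of the members, close to that of Slc9a3. It stood at 16.6, 21.9 and 12.6 FPKM in FDG-decreased replicates 1, 2 and 3, against 23.0, 21.5 and 15.4 FPKM in FDG-increased replicates 1, 2 and 3. The groups overlapped, with a difference of -0.23 (SE 0.31, limma 95% interval -0.94 to 0.48, or -0.56 to 0.10 with the block). Kcnq1 in the sham table stood at 21.9, 23.6 and 21.9 FPKM in FDG-increased columns 1, 2 and 3, against 9.26, 23.0 and 21.6 FPKM in sham replicates 1, 2 and 3. Sham replicate 1 was low and the other 5 columns lay within a narrow band. The difference was 0.40 (SE 0.35, 95% interval -0.39 to 1.20, limma adjusted p = 0.815), and without sham replicate 1 it was 0.01 (limma adjusted p = 0.995). In mouse and human an antisense RNA, Kcnq1ot1, arises within this gene. Use of strand in counting is not given in the sources used here, so its reads may be part of these values.

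**Figure D2:**
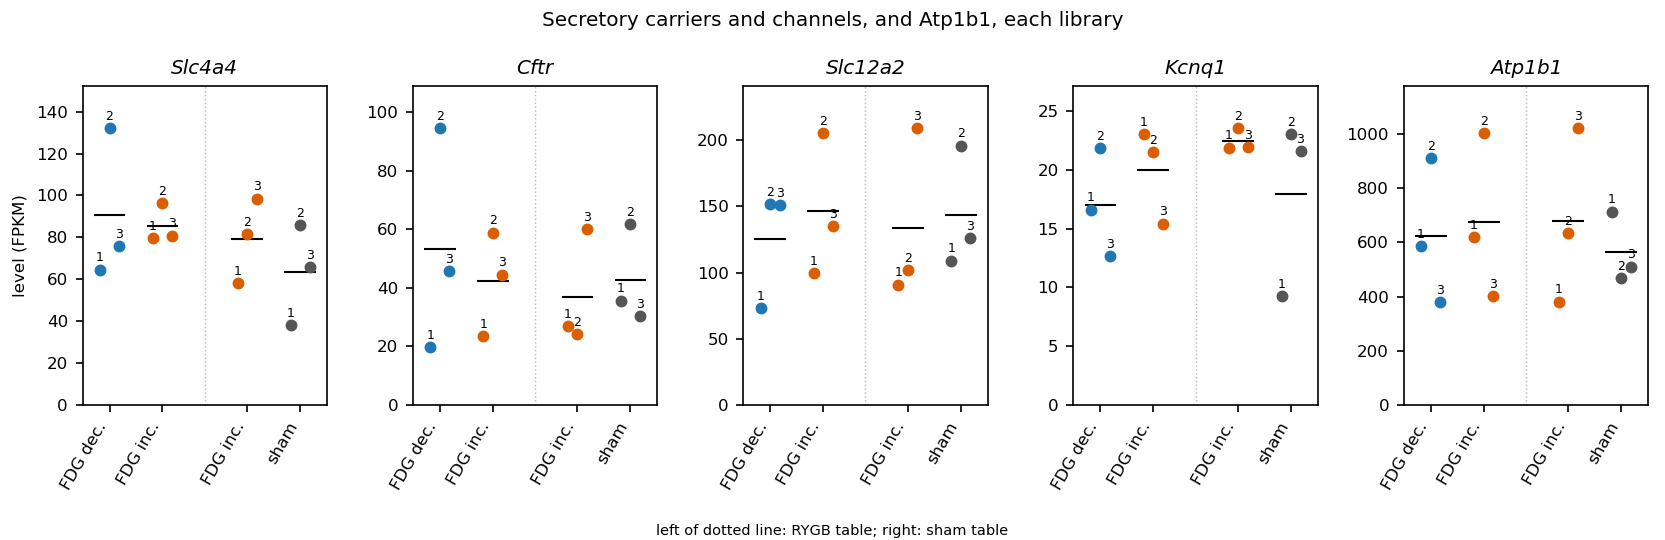
Level in FPKM of the 4 secretory genes and of Atp1b1 in each library, with numbered points for replicates or columns and a bar for the group mean; the RYGB table is left of the dotted line and the sham table right of it. Every pair of groups overlaps, and Kcnq1 at 9.26 FPKM and Slc4a4 at 38.2 FPKM are lowest in sham replicate 1.

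Atp1b1, the beta subunit that the sodium pump needs to reach the basolateral membrane, stood at 586, 911 and 379 FPKM in FDG-decreased replicates 1, 2 and 3, against 620.3, 1002 and 401 FPKM in FDG-increased replicates 1, 2 and 3. Each FDG-decreased library lay slightly below its partner, by -0.08, -0.14 and -0.08 on the log2 scale, while replicates of 1 group differed far more. The mean difference was -0.10 (SE 0.50, limma 95% interval -1.26 to 1.06, or -0.38 to 0.19 with the block). Atp1b1 in the sham table stood at 382, 635 and 1022 FPKM in FDG-increased columns 1, 2 and 3, against 713, 468 and 511 FPKM in sham replicates 1, 2 and 3. The sham range lay inside the FDG-increased range, with a difference of 0.18 (SE 0.41, 95% interval -0.76 to 1.12, limma adjusted p = 0.945), and 0.36 without sham replicate 1 (SE 0.45, limma adjusted p = 0.829).

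Between the FDG groups the members had log2 differences from -0.24 for Slc12a2 to 0.40 for Slc26a6. Of the 9, 4 lay above 0 and 5 below, with a median of -0.02, beside a median of 0.02 over all genes. The medians were 0.04 over the absorptive and -0.10 over the secretory members. Only Slc26a6, higher in FDG-decreased ileum, and Atp1b1, lower, had the same sign in all 3 pairs, that is 2 of 9 members against 29.8% of all genes. Pairs 1 and 2 also shared a sequencing lane, lane 7 and lane 4, and within those lanes the differences of the members ran from -0.45 for Kcnq1 in pair 1 to 0.67 for Cftr in pair 2. Lane and pairing cannot be told apart there.

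**Figure D3:**
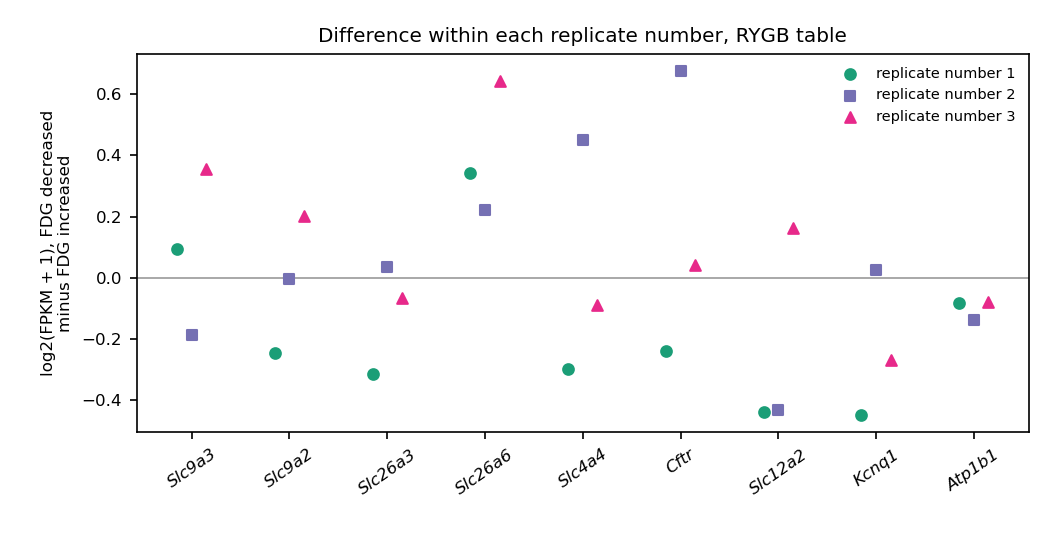
Difference in log2(FPKM + 1), FDG decreased minus FDG increased, within each replicate number of the RYGB table, for the 9 members, with a marker for each replicate number and a line at 0. The markers of Slc26a6 all lie above 0, at 0.22 to 0.64, those of Atp1b1 lie just below it, and the other members have markers on both sides.

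Against sham, 6 of the 9 members lay above 0 in FDG-increased ileum and 3 below, with a median log2 difference of 0.18, beside 0.13 over all genes. Absorptive members had a median of 0.36 and secretory members of 0.10. The directions depended on scaling. When libraries were rescaled to the same sum of FPKM, 2 members lay above 0 and 7 below, with a median of -0.26, and the median of all genes was then -0.27. Slc9a2 and Slc26a3 were above 0 under each scaling tried, at 0.51 to 0.94 and 0.27 to 0.71, and Slc9a3, Cftr and Slc12a2 were below 0 under each. Without sham replicate 1, all 4 absorptive members lay above 0, with a median of 0.70, and the secretory members had a median of -0.16, beside 0.15 over all genes. Limma then called 0 of 9 members, against 0.00926% of all genes, and Slc9a2 alone had an unadjusted p under 0.05, against 9.61% of all genes.

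Sequencing lane is partly tied to this comparison. All sham libraries are labelled lane 7. Of the FDG-increased columns only column 2 is known, by its identity with FDG-increased replicate 1 of the other table, to come from that lane. With this library alone against the 3 sham libraries, the difference was 1.06 for Slc9a2, 0.61 for Slc26a3, 0.21 for Slc26a6 and -0.46 for Slc9a3. In the same fit it was 0.47 for Kcnq1, 0.43 for Slc4a4, 0.19 for Atp1b1, -0.45 for Slc12a2 and -0.73 for Cftr, and limma gave each member an adjusted p of 0.999905. The lone library is taken to vary like the sham libraries.

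**Figure D4:**
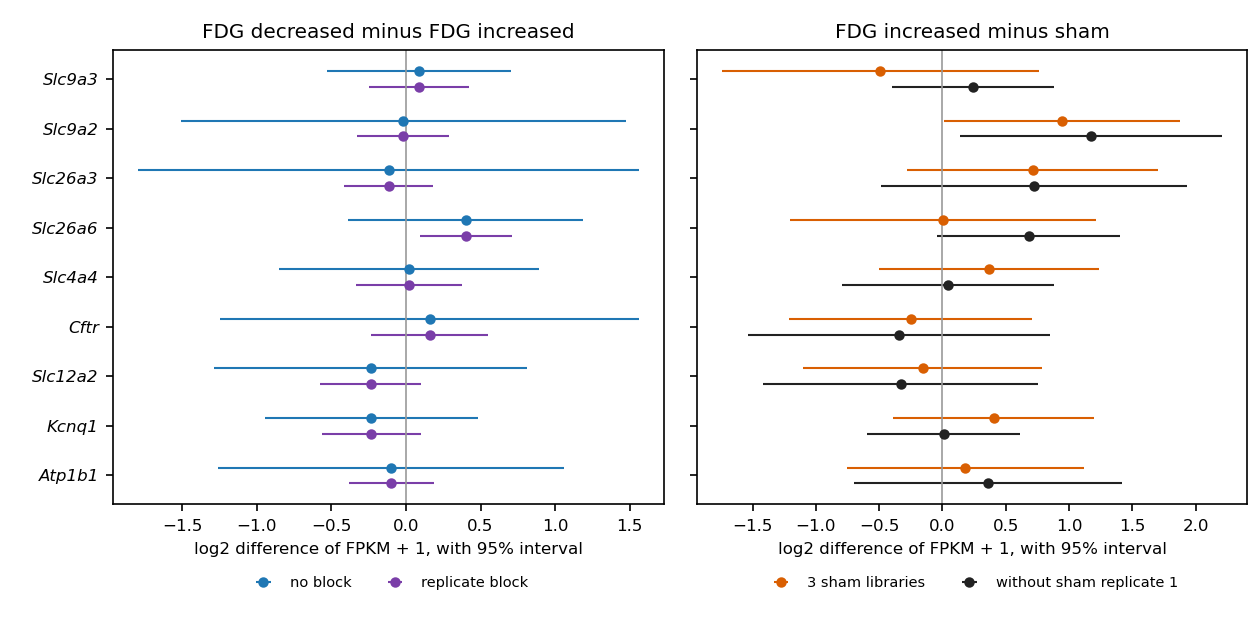
Log2 difference of FPKM + 1 with limma's 95% interval for each member, left FDG decreased minus FDG increased without and with the replicate block, right FDG increased minus sham with 3 sham libraries and without sham replicate 1. The block narrows the intervals on the left, where only that of Slc26a6 (0.10 to 0.71) stays clear of 0, and leaving out sham replicate 1 moves Slc9a3 to 0.24 and Slc26a6 to 0.68.

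The balance of absorptive and secretory transcripts differed more within groups than between them. As the mean of log2(FPKM + 1) over the 4 absorptive members minus that over the 4 secretory members, it was 1.04, 0.18 and -0.06 in FDG-decreased replicates 1, 2 and 3, against 0.71, 0.34 and -0.38 in FDG-increased replicates 1, 2 and 3. In both groups replicate 1 leaned most to absorption and replicate 3 least. In the sham table it was 0.43, 0.71 and 0.34 in FDG-increased columns 1, 2 and 3, against 1.61, -0.68 and -0.05 in sham replicates 1, 2 and 3. Within the sham table, sham replicate 1 lay above all FDG-increased columns and sham replicates 2 and 3 lay below all of them. FDG-increased replicate 3, held only in the RYGB table, lay at -0.38, between sham replicates 2 and 3. The 7 measured villus enterocyte markers, none at 0, summed to 18635, 14339 and 5364 FPKM in FDG-decreased replicates 1, 2 and 3, against 10374, 11197 and 3051 FPKM in FDG-increased replicates 1, 2 and 3. They summed to 6578, 10612 and 11425 FPKM in FDG-increased columns 1, 2 and 3 of the sham table, against 14118, 4354 and 4835 FPKM in sham replicates 1, 2 and 3. Their part in the balance was not tested.

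FDG-decreased and sham ileum stand in tables scaled apart, so their values are set side by side with no test. The ranges overlapped for all 9 members. Slc26a6 ranged over 75.8 to 99.99 FPKM in FDG-decreased ileum, beside 40.9 and 45.4 FPKM in sham replicates 2 and 3 and 178 FPKM in sham replicate 1. Slc9a2 ranged over 43.3 to 143 FPKM in FDG-decreased ileum, beside 34.5 to 80.5 FPKM in sham ileum, and Slc26a3 over 64.8 to 309 FPKM, beside 89.3 to 112 FPKM. The shared libraries stood 1.023 and 1.0204 times higher in the sham table than in the RYGB table, which is small beside these ranges.

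A few other genes of ion transport passed the test once the replicate block was fitted. The list held 77 genes, of which 76 were in the tables and 62 were tested. Between FDG-decreased and FDG-increased ileum limma called 0 of the 62. At an unadjusted p under 0.05, 1 gene lay higher and 2 lower, 4.84% of the list against 1.02% of all genes. All of them were among the 7 carbonic anhydrases, of which 3 had groups that did not overlap, against 3.2% of all genes. The replicate block brought 1 call in each direction, and put 11 genes above 0 and 5 below 0 under an unadjusted p of 0.05 by limma. These are 2 calls among 62 genes against 1.14% of all genes, and 25.8% of the list under the unadjusted threshold against 9.52% of all genes. The gene called lower was Ca1, carbonic anhydrase 1, a cytosolic enzyme that makes bicarbonate. It stood at 1.03, 0.91 and 0.13 FPKM in FDG-decreased replicates 1, 2 and 3, against 6.68, 6.50 and 1.91 FPKM in FDG-increased replicates 1, 2 and 3. The groups did not overlap, and the difference was -1.75 (SE 0.19 with the block, limma adjusted p = 0.00157; without it SE 0.44, limma adjusted p = 0.999998). The gene called higher was Vip, the neuropeptide that raises cyclic AMP and opens Cftr. It stood at 22.5, 24.9 and 42.7 FPKM in FDG-decreased replicates 1, 2 and 3, against 8.08, 12.6 and 30.2 FPKM in FDG-increased replicates 1, 2 and 3. The groups overlapped and every pair was higher, by 0.93 on average (SE 0.18 with the block, limma adjusted p = 0.0373; without it SE 0.49, limma adjusted p = 0.999998). The 5 measured markers of enteric neurons and glia, none at 0, summed to 12.4, 23.4 and 11.4 FPKM in FDG-decreased replicates 1, 2 and 3, against 17.4, 18.8 and 19.7 FPKM in FDG-increased replicates 1, 2 and 3, and their part in the Vip difference was not tested.

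Several further genes of these pathways had an unadjusted p under 0.05 with the block and did not pass the adjusted test. Guca2b, the peptide uroguanylin that signals through cyclic GMP, stood at 1205, 594 and 245 FPKM in FDG-decreased replicates 1, 2 and 3, against 335.5, 348 and 49.96 FPKM in FDG-increased replicates 1, 2 and 3. Its difference of 1.63 had SE 0.27 and a limma adjusted p of 0.0629 with the block, while guanylin, Guca2a, and their shared receptor Gucy2c differed by 0.03 and 0.01. Car2, the cytosolic carbonic anhydrase 2, differed by 0.72 (limma adjusted p = 0.0699 with the block), with groups of 7.09 to 10.3 FPKM in FDG-decreased ileum and 4.06 to 6.47 FPKM in FDG-increased ileum that did not overlap. Ptger4, a prostaglandin E2 receptor, differed by -0.83 (limma adjusted p = 0.0547 with the block). Also above 0 were Sgk1 at 0.73, Aqp7 and Aqp11 at 0.57 each, Kcnj13 at 0.55, Prkg2 at 0.47, Vipr1 at 0.43, Ahcyl1 at 0.38 and Chp2 at 0.32. Below 0 were Car12 at -0.73, Hsd11b2 at -0.61 and Car9 at -0.60. The proximal and villus enterocyte markers given beside Slc26a6 summed higher in each FDG-decreased library than in its partner, and their part in these differences was not tested.

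Against sham, limma called 0 of the 62 genes, and 5 higher and 1 lower had an unadjusted p under 0.05. That is 9.68% of the list against 7.84% of all genes. When sham replicate 1 is left out it is 14.5% of the list against 9.61% of all genes. Guca2a, the peptide guanylin, stood at 2549, 3372 and 3534 FPKM in FDG-increased columns 1, 2 and 3, against 917, 825 and 1170 FPKM in sham replicates 1, 2 and 3. The groups stood far apart, with a difference of 1.70 (SE 0.32, limma p of 4.6e-04, adjusted p = 0.183) and 1.67 without sham replicate 1. The FDG-increased library outside this comparison held 612 FPKM on the scale of the RYGB table, below every sham library. Clca4, of the chloride channel accessory family, stood at 579, 693 and 1066 FPKM in FDG-increased columns 1, 2 and 3, against 293, 127 and 304 FPKM in sham replicates 1, 2 and 3, a difference of 1.74 (SE 0.43, limma adjusted p = 0.409) and 1.93 without sham replicate 1 (SE 0.47, limma adjusted p = 0.445). That outside library held 192 FPKM of Clca4, inside the sham range. Markers of other cell types and of distal ileum also had groups that did not overlap. The 4 measured goblet cell markers, none at 0, summed to 6006, 6568 and 8492 FPKM in FDG-increased columns 1, 2 and 3, against 5625, 4083 and 2163 FPKM in sham replicates 1, 2 and 3. The 5 Paneth cell markers, with 1 at 0 in each library, summed to 17918, 11443 and 20166 FPKM in FDG-increased columns 1, 2 and 3, against 4347, 10709.9 and 8914 FPKM in sham replicates 1, 2 and 3. The distal ileum markers summed to 17096, 19805 and 24493 FPKM in FDG-increased columns 1, 2 and 3, above the sums of all sham libraries given at the start. As means of log2(FPKM + 1), goblet, Paneth and distal ileum markers overlapped. Goblet markers stood at 10.17 in FDG-increased column 1 and 10.39 in sham replicate 1. Paneth markers stood at 8.13 in column 2 and 8.19 in sham replicate 2. Distal ileum markers stood at 6.85 in column 1 and 7.08 in sham replicate 3. The 4 measured markers of T, B and myeloid cells, none at 0, had groups apart on both scales. In FDG-increased columns 1, 2 and 3 they summed to 63.8, 64.4 and 117 FPKM. Sham replicates 1, 2 and 3 held 33.4, 29.8 and 48.4 FPKM. Their lowest mean of log2(FPKM + 1) in FDG-increased ileum was 3.92, in column 1, above 3.59 in sham replicate 3, the highest of sham. The outside library summed to 7614, 10694 and 7599.9 FPKM of goblet, Paneth and distal ileum markers. Of T, B and myeloid markers it held 11.2 FPKM, below every sham library. The part of these markers in the Guca2a and Clca4 differences was not tested. Ca1 differed by 1.52, the water channel Aqp1 by 0.95, Aqp7 by 0.91 and the potassium channel Kcnj13 by -0.98, with limma adjusted p from 0.517 to 0.626. Without sham replicate 1, Aqp1 differed by 0.85 and Aqp7 by 1.25. In that fit Ca1 differed by 1.41 and Kcnj13 by -0.62, and neither had an unadjusted p under 0.05 by limma. The list had 40 genes above 0 and 22 below, with a median of 0.20, beside 0.13 over all genes.

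**Figure D5:**
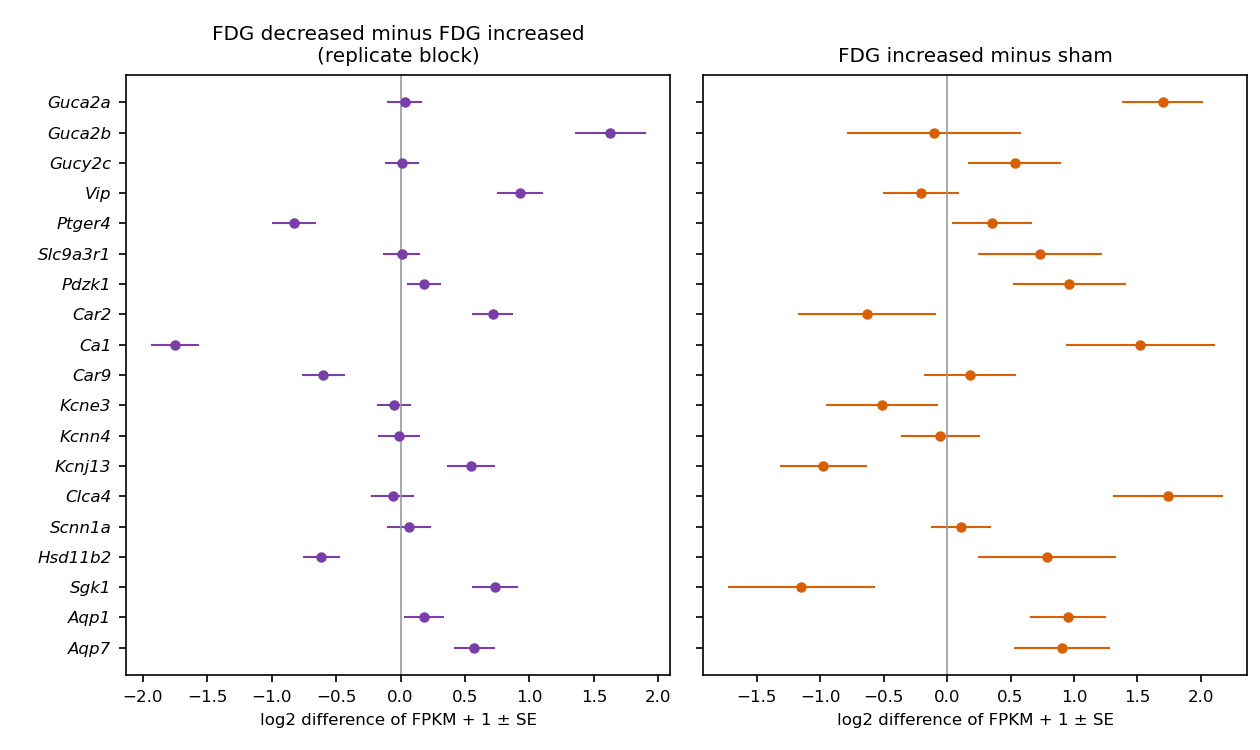
Log2 difference of FPKM + 1 with its SE for other ion transport genes, left FDG decreased minus FDG increased with the replicate block, right FDG increased minus sham. Ca1 at -1.75 and Guca2b at 1.63 lie farthest from 0 on the left, and Clca4 at 1.74 and Guca2a at 1.70 on the right.

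Close partners of the members showed no difference past the test. Kcne3, the subunit that keeps Kcnq1 open, differed by -0.05 between FDG-decreased and FDG-increased ileum and by -0.51 (SE 0.44) between FDG-increased and sham ileum. The scaffolds that hold Slc9a3 and its partners at the brush border, Slc9a3r1 and Pdzk1, differed by 0.01 and 0.18 between the FDG groups. Against sham they differed by 0.73 (SE 0.49, limma adjusted p = 0.760) and 0.96 (SE 0.45, limma adjusted p = 0.660). The potassium channel Kcnn4 differed by -0.01 and -0.05 in these comparisons. The differences of FDG-increased from sham ileum without sham replicate 1 were -0.52 for Kcne3, 1.06 for Slc9a3r1, 1.35 for Pdzk1 and 0.12 for Kcnn4. In that fit limma called 0 of the 12 tested apical absorption partners and exchangers. At an unadjusted p under 0.05 it was 2 of 12, or 16.7%, against 9.61% of all genes, and 0 of 12 with all sham libraries. Of the 8 tested sodium pump genes limma called 0 in that fit. At the unadjusted threshold it was 2 of 8, or 25%, and 0 of 8 with all sham libraries. The epithelial sodium channel, an aldosterone target that in the gut is known chiefly from the distal colon, was low. Scnn1a stood at 2.47 to 4.69 FPKM over all columns, Scnn1b at 0.38 to 1.46 FPKM and Scnn1g at 0.03 to 0.36 FPKM. The chloride channel Clcn2 was listed at 0 in every library, as 2125 of the 17120 genes were, and absence from ileum cannot be read from that. The water channel Aqp8 did not exceed 0.96 FPKM.

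Many genes followed the pattern of the most abundant exchanger across libraries. The likeness is the smaller of the Pearson r values in the 2 tables, on log2(FPKM + 1) over 6 libraries each, a description over points that share library scale, with 2 libraries in both tables. For Slc26a3 the nearest of 10651 genes were Ago3 at 0.99, Hpgd at 0.98 and Upf2 at 0.98, and 401 genes exceeded 0.9. For Slc12a2 they were Ppapdc1b at 0.98, Rhoq at 0.97 and Zfp422 at 0.97, and 123 genes exceeded 0.9.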

How the data were processed

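Total RNA was sequenced from 9 ileum samples in 3 groups, taken from their titles. DESeq2 1.24.0, Cuffdiff, Cufflinks 2.2.1, STAR 2.6.0a and bcl2fastq 1.8.4 are named, without settings, per the submitters' processing notes. The same notes name the human build hg19, although the symbols are those of rat, so no coordinates of the files are used. The authors deposited FPKM per gene and library in 2 tables, each with its own scaling. Of 17145 rows, 25 symbols turned into dates were left out, and 2125 genes were at 0 throughout. The number of sample columns left unused was 0.

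FPKM gives no read depth: at most 4.125% of low values gathered at one ratio between libraries, so whole reads could not be recovered and no counting intervals are given. In the sham table, the columns of FDG-increased ileum entered by group alone, since columns 2 and 3 equal replicates 1 and 2 of the RYGB table within 1% for 99.985% and 99.941% of genes, after the factors 1.023 and 1.0204. The labels name 3 FDG-increased samples, and the tables hold 4.

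Comparisons used limma 3.58.1 in R 4.3.3 on log2(FPKM + 1), with an intensity trend and robust variances. The code was tried on simulated data. The simulation gave every gene the same spread and had no pairing of replicates, so it does not give the power of these fits. SE is limma's moderated standard error. The scale understates changes of genes of low level. The labels give replicate numbers and do not state a pairing. In the RYGB table it was inferred from these same values. Deviations from the group means correlated at 0.845, 0.763 and 0.768 within numbers and at -0.594 to -0.13 between them. Deviations within a group sum to 0, so high values within numbers force low ones between them, which add no separate evidence. Members, gene lists and tests were chosen with earlier results of these data known. Genes beyond the members are those of the list with an unadjusted p under 0.05 in either comparison, partners named whatever their values, and those the block brought under 0.05, which were added after their values were seen. Alternatives were another pseudocount, no level filter, 3 other scalings, the block, limma without trend and robust variances, lane 7 alone and leaving out each library. 1 gene of the list is not reported here.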

Additional observations from a re-analysis of the deposited data

How the results depend on the processing

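No member passed limma's adjusted test under any alternative: the lowest adjusted p by limma was 0.310 over 117 values of FDG decreased minus FDG increased and 0.432 over 126 values of FDG increased minus sham. The sign changed in 17 and 16 of these, and the cause was not tested. Against sham, Slc26a6 was -0.12 with libraries shifted to the same median, -0.27 with quantile normalization and -0.43 with libraries rescaled to the same sum of FPKM, a setting chosen after seeing the data. Quantile normalization and the rescaling gave -0.0028 and -0.073 for Slc4a4 and -0.25 and -0.26 for Atp1b1, and the rescaling -0.019 for Kcnq1. Between the FDG groups they gave 0.00023 and 0.011 for Slc9a2. Leaving out each library in turn, FDG increased minus sham ranged over -0.96 to 0.24 for Slc9a3, -0.37 to 0.68 for Slc26a6, -0.65 to 0.044 for Cftr, -0.53 to 0.089 for Slc12a2 -0.17 to 0.54 for Atp1b1, 0.57 to 1.19 for Slc9a2, 0.27 to 1.10 for Slc26a3, 0.045 to 0.62 for Slc4a4 and 0.0098 to 0.62 for Kcnq1. FDG decreased minus FDG increased ranged over -0.017 to 0.23 for Slc9a3, -0.61 to 0.47 for Slc9a2, -0.71 to 0.41 for Slc26a3, -0.28 to 0.23 for Slc4a4, -0.38 to 0.72 for Cftr, -0.48 to 0.11 for Slc12a2 -0.42 to 0.24 for Atp1b1, 0.20 to 0.55 for Slc26a6 and -0.42 to -0.045 for Kcnq1.

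Of all genes, limma called 0 between the FDG groups, 122 with the replicate block and 0 to 1 without single libraries. Against sham it called 4, and 1 with a pseudocount of 0.1, 0 with no filter on low values (1055 at an unadjusted p under 0.05), 1 at the same median, 0 after quantile normalization (812 at an unadjusted p under 0.05), 2 at the same sum, 39 with the replicate block and 0 to 13 without single libraries. In the sham table the numbers share nothing known: same-numbered columns correlated at 0.35, -0.498 and -0.246. The block changed no call of a member. Read depth is unknown, so counting error cannot be given for any value.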
